A study of Mus musculus with 6 samples.

Results

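The Notch pathway was examined through 10 genes in primary embryonic fibroblasts of the mouse (pMEFs, cells of connective tissue cultured from embryos). The cells were wild type or knockout for the Hat1 gene. The 10 genes are the receptors Notch1, Notch2, Notch3 and Notch4, the ligands Jag1 and Dll1, and the target genes Hes1, Hey1, Hey2 and Heyl. They were chosen by symbol from the 17512 genes of the deposited table, and all 10 had a row there. RNA-seq had been carried out on 6 lines of strain background C57bl6, 3 of genotype HAT1 WT (lines 36, 47 and 78) and 3 of genotype HAT1 KO (lines 33, 41 and 72). Cells of both genotypes were grown in the same serum-containing medium without any treatment. HAT1 acetylates new histone H4, and the study asked whether its loss changes transcription. The knockout is complete rather than induced in culture, so the lines had lacked HAT1 since before the cells were taken. The labels number the lines but do not state that each came from a separate embryo. The tests thus set the genotype difference against the variation between these lines, which may not be independent embryos.

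Notch receptors are single-pass membrane proteins that are activated by ligands of the Jagged and Delta families on a neighbouring cell. Binding lets ADAM proteases and then gamma-secretase cut the receptor, and the freed intracellular domain enters the nucleus and joins the DNA-binding protein RBPJ and a Mastermind co-activator. The best known targets are the Hes and Hey genes, which code for basic helix-loop-helix repressors. In mesenchyme the pathway is known for holding back differentiation and for its part in the mural cells (pericytes and smooth muscle) that surround vessels.

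None of the 10 genes differed between the genotypes at the threshold used. For 6 of the 10 the HAT1 KO lines spread at least 2-fold, beside 20.2% of tested genes, a measure chosen after the values were seen. The KO spread of Notch2 and Hes1 was small, and 85.1% and 67.8% of tested genes had at least as much. In edgeR's quasi-likelihood test 0 of the 10 fell under an adjusted p-value of 0.05, a call made for 0.528% of the 14773 genes tested. At an unadjusted p-value under 0.05 it was again 0 of 10, beside 14.6% of all tested genes. In DESeq2 it was 1 of 10 (Hey2), beside 16.6% of all tested genes, and with voom 1 of 10 (Jag1), beside 17.7%. The fitted level was higher in HAT1 KO for all 10, with log2 fold changes from 0.02 for Notch2 to 1.20 for Heyl and a median of 0.31. Over all tested genes 51.5% were higher and the median was 0.01. With the sequencing lane in the model, or without KO line 33, it was higher for 6 of 10, with voom for 7 of 10 and without KO line 72 for 9 of 10. Levels are given below as CPM, a gene's count relative to the total of its library after scaling with TMM (trimmed mean of M-values) factors. The lines of the genotypes did not separate for any of the 10, which they did for 22.0% of tested genes.

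**Figure D1:**
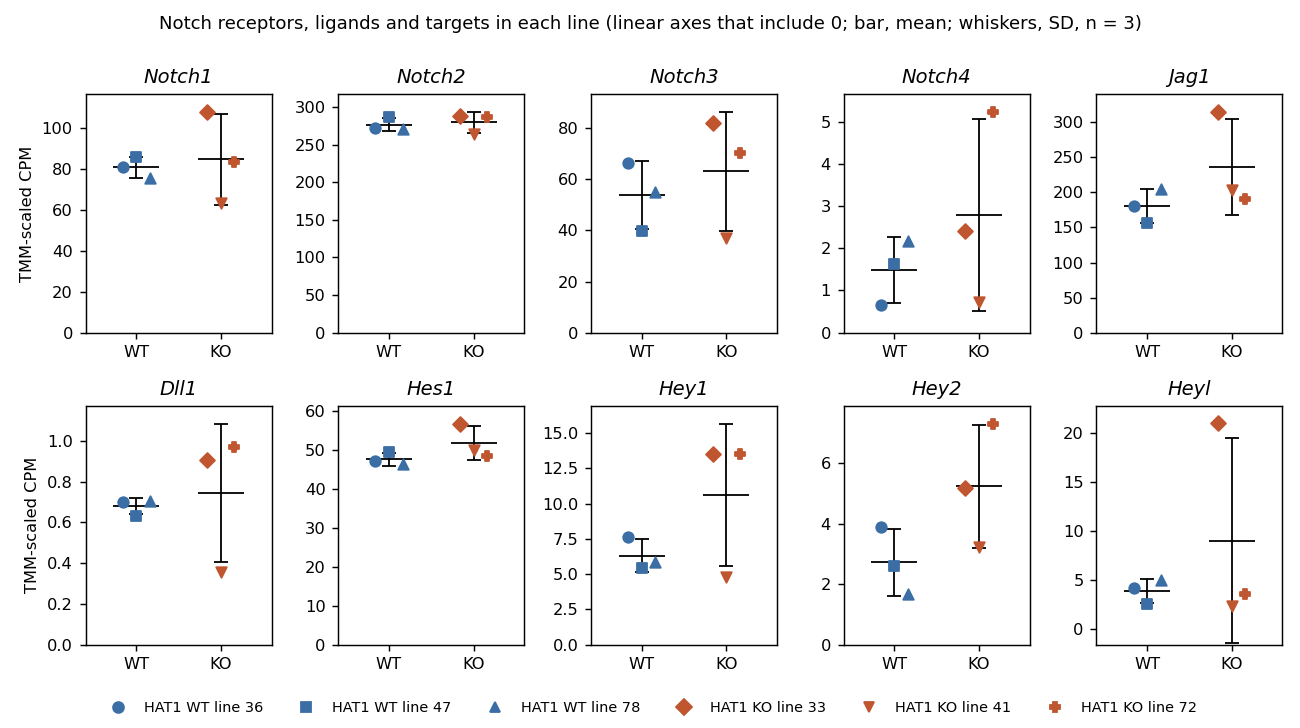
Level of each of the 10 genes in each line, in CPM scaled by TMM on linear axes that include 0, with HAT1 WT lines in blue and HAT1 KO lines in orange. Horizontal bars are means and whiskers are SD (n = 3 lines), and the WT and KO points overlap in every panel, with KO line 33 (diamond) above the 3 WT lines in each.

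Several properties of the libraries bear on these comparisons. Libraries held from 67720628 to 98786746 counts, so counting error matters only for the scarcest genes. Hat1 itself lay between 17.4 and 23.0 CPM in the WT lines and between 10.0 and 10.3 CPM in the KO lines, with a log2 fold change of -0.99 (SE 0.12, adjusted p-value 0.0376 in edgeR). Reads assigned to Hat1 remained in all KO lines, and the counts do not show whether they come from the deleted part. KO line 72 stood apart, with a mean Pearson correlation of 0.958 to the other lines across genes, against 0.974 to 0.979 for the others. WT lines 36 and 47 had 13788 and 12841 counts of Y-linked genes, while the other 4 lines had between 4 and 231, so sex-linked expression and genotype were not balanced. The 10 fibroblast markers summed to between 54991 and 90232 CPM in every line, which goes with the label. All 10 myeloid blood markers were lower in HAT1 KO, beside 48.5% of all tested genes. In edgeR 7 of the 10 passed the adjusted threshold, beside 0.528% of all tested genes. The number was 0 with the lane in the model, or without WT line 36, 47 or 78 or KO line 33 or 41. It was 4 without KO line 72 or without a filter on low counts. All 10 stayed lower in each of these fits. Their sum was 1984 to 2110 CPM in WT lines and 1081 to 1259 CPM in KO lines, and in bulk RNA fewer cells of a type and less RNA per cell cannot be told apart.

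Relative abundance was compared per kilobase (kb) of merged GENCODE exons, since longer genes collect more reads. Jag1 was the most abundant of the 10, with 31.0 ± 4.14 CPM per kb in HAT1 WT and 40.5 ± 11.8 CPM per kb in HAT1 KO (SD, n = 3 each). Notch2 followed at 25.7 ± 0.847 and Hes1 at 23.4 ± 0.810 CPM per kb in HAT1 WT. The ranges of these 2 over all lines overlapped, whereas Jag1 lay above Notch2 in each line. Notch3 (6.65 ± 1.65) and Notch1 (5.68 ± 0.367) formed a middle pair whose ranges overlapped. Hey1 (1.93 ± 0.361), Heyl (0.765 ± 0.238) and Hey2 (0.592 ± 0.242) came next and overlapped when all lines were considered. Notch4 (0.184 ± 0.0959) and Dll1 (0.161 ± 0.00981 CPM per kb) were the scarcest and overlapped too. Jag1, Notch2 and Hes1 thus each led their family among the 10 genes.

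Among the receptors Notch2, a broadly expressed family member, was both the most abundant and the steadiest. It measured 273, 287 and 270 CPM in WT lines 36, 47 and 78 and 288, 264 and 287 CPM in KO lines 33, 41 and 72. All 6 values lay within a narrow band in which the genotypes overlapped. The means were 277 ± 9.13 and 280 ± 13.9 CPM, the log2 fold change was 0.02 (SE 0.07) and its 95% interval ran from -0.15 to 0.18. The adjusted p-value of Notch2 was 0.938 in edgeR. Of all tested genes 93.8% had a biological coefficient of variation at least as large as its 10.4%. Notch2 lies on chromosome 3 from 98013527 to 98150361 on the plus strand (GRCm38, GENCODE M21), and 541 of its exon bases lie under another transcript on that strand.

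Notch1, the receptor best known from blood and vessel development, measured 81.1, 86.0 and 75.6 CPM in WT lines 36, 47 and 78. In KO lines 33, 41 and 72 it measured 108, 63.5 and 83.3 CPM. The highest and the lowest of the 6 values were thus both from KO lines, on either side of all WT lines. The log2 fold change was 0.07 (SE 0.19, 95% interval -0.38 to 0.52) with an adjusted p-value of 0.893 in edgeR. Without KO line 33 it was -0.14. Notch1 lies on chromosome 2 from 26457903 to 26516663 on the minus strand, the chromosome that also carries Hat1 (71388958 to 71441622) and Jag1. Transcripts on the opposite strand cover 1488 and 414 of its exon bases, so part of the Notch1 count is uncertain.

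Notch3, the receptor characteristic of mural cells, showed the same order of KO lines. It measured 66.4, 39.8 and 55.2 CPM in WT lines 36, 47 and 78 and 81.9, 37.2 and 70.3 CPM in KO lines 33, 41 and 72. KO lines 33 and 72 exceeded every WT line, and KO line 41 fell below every WT line. The means were 53.8 ± 13.3 CPM in HAT1 WT and 63.2 ± 23.2 CPM in HAT1 KO, with a log2 fold change of 0.23 (SE 0.32, 95% interval -0.54 to 1.01) and an adjusted p-value of 0.786 in edgeR. An antisense gene on the opposite strand covers 3624 of its exon bases, on chromosome 17 between 32120820 and 32166852, and the use of strand in counting was not stated, so part of the Notch3 count is uncertain.

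Markers of mural cells were compared beside Notch3. Of the 12 listed, 11 were tested. In edgeR 4 of these had an unadjusted p-value under 0.05, all higher in HAT1 KO (36.4%, beside 5.88% of all tested genes). The 4 were Acta2, at 2980 to 4959 CPM over the lines, Tagln, Cnn1 and Myh11. The 7 others, among them Rgs5, Kcnj8 and Abcc9, were not under that value. Whether the RNA of the 4 came from mural cells or from the fibroblasts was not tested. None of the markers passed the adjusted threshold in edgeR (smallest adjusted p-value 0.115). Led by Acta2, their summed level was 5285 to 6187 CPM in WT lines and 8197, 7436 and 6532 CPM in KO lines 33, 41 and 72. The 2 with the smallest p-values were the contractile genes Cnn1, at a log2 fold change of 0.42 (SE 0.09), and Myh11, at 0.63 (SE 0.16). The pericyte genes of the list differed among themselves. Kcnj8 measured 2.32, 4.02 and 0 CPM in KO lines 33, 41 and 72 and 1.06, 0.994 and 5.87 CPM in WT lines 36, 47 and 78. Higd1b had 4, 0 and 0 counts in these KO lines and 4, 6 and 3 in these WT lines, too few to be tested. Rgs5, chosen after its values were seen, measured 2.75, 1.45 and 4.45 CPM in KO lines 33, 41 and 72. Its WT lines lay at 0.546 to 2.20 CPM, and KO line 41 was the lowest of the KO lines as for Notch3. KO line 41, lowest of all in Notch3, held the second highest mural sum, of which Acta2 made up 56.4% to 60.5% over the lines. Pdgfrb (832, 566 and 634 CPM in KO lines 33, 41 and 72) and Mcam (101, 54.4 and 60.6 CPM) were lowest of the KO lines in line 41. Abcc9 (5.01, 7.97 and 0.0518 CPM) was highest there. These genes were also chosen after their values were seen. The part of mural cells in the level of Notch3 was not tested.

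Notch4, a receptor mostly found in endothelium, was scarce and varied most among the receptors. It had 49, 132 and 215 counts in WT lines 36, 47 and 78, or 0.650, 1.64 and 2.17 CPM. In KO lines 33, 41 and 72 it had 214, 49 and 404 counts, or 2.40, 0.725 and 5.24 CPM. KO line 72 was the highest and WT line 36 the lowest, with KO line 41 close to the latter. The log2 fold change was 0.90 (SE 0.75, 95% interval -0.91 to 2.72), and the adjusted p-value in edgeR was 0.626. Only 4.59% of tested genes had a coefficient of variation as large as its 64.0%. The log2 fold change became -0.03 once the lane was a covariate, 0.09 without KO line 72 and 1.35 without KO line 41.

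Endothelial markers, counted beside Notch4, gave no single pattern across the lines. Their sum was 150 to 192 CPM in WT lines and 140, 145 and 50.4 CPM in KO lines 33, 41 and 72, and Flt1, a receptor for vascular growth factors, made up 67.2% to 92.2% of it. Without Flt1 the other 8 summed to 14.6 to 16.1 CPM in WT lines and to 11.5, 15.2 and 16.5 CPM in KO lines 33, 41 and 72, so that KO line 72 went from lowest to highest. The transcription factor Erg measured 0.741, 0.503 and 5.82 CPM in KO lines 33, 41 and 72 and 0.626 to 2.48 CPM in WT lines. It was highest in KO line 72, the line with most Notch4, and made up 5.82 of the 16.5 CPM there. Tek (0.207 CPM), Egfl7 (1.31 CPM) and Esam (0.0648 CPM) were instead lowest of all lines in KO line 72, while Kdr, Pecam1 and Cdh5 were neither highest nor lowest there. Flt1, Erg, Tek, Egfl7, Esam and Kdr were singled out after their values were seen, and the part of endothelial cells in the level of Notch4 was not tested. Of 12 listed genes 9 had a row and 8 were tested. The 2 with an unadjusted p-value under 0.05 were both lower in HAT1 KO (25%, beside 8.77% of all tested genes). Pecam1, an adhesion protein of the vessel wall, had a log2 fold change of -1.63 (SE 0.41), and Cdh5, the cadherin of endothelial junctions, one of -0.85 (SE 0.28). Their adjusted p-values in edgeR were 0.176 and 0.260, and no line exceeded 0.742 CPM for Cdh5 or 0.646 CPM for Pecam1. The defining markers Tie1, Cldn5 and Sox17 had no row in the table.

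The sequences just upstream of the receptor genes are shown for the steadiest and the most variable receptor, since they differ in CpG content. RefSeq start sites on GRCm38.p6 were available for 7 of the 10 genes, and Hes1, Hey1 and Heyl had no entry. The 250 bases upstream of Notch2 (chr3:98013288-98013537, plus strand) hold 34 CpG dinucleotides and 72% G and C. Those upstream of Notch4 (chr17:34564045-34564294, plus strand) hold 4 CpG dinucleotides and 58.4% G and C. Capitals mark CpG dinucleotides, and both are printed 5′ to 3′.
Notch2: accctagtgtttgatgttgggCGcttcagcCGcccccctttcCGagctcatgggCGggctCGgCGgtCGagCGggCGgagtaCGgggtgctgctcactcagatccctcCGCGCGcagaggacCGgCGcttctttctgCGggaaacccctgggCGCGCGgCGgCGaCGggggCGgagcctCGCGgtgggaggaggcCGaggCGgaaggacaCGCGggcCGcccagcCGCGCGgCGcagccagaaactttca
Notch4: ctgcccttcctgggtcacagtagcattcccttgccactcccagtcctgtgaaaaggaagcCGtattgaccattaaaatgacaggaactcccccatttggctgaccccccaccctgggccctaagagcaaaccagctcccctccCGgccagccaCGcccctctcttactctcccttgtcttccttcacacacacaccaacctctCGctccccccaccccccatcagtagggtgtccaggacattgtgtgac

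Over the 300-base windows that include 50 bases after the start site, Notch2 held 41 and Notch4 held 5 CpG dinucleotides, and the median over 32851 mouse promoters was 7. The windows of Notch1, Notch3 and Jag1 held 23, 25 and 22, and those of the 2 Dll1 start sites 24 and 15. Notch4 thus had the fewest of the 7 genes and was the only one below that median. Its window held 58.3% G and C, above the median of 52.7% over the same promoters. A link between CpG content and the variation of these genes was not tested.

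The 2 ligands differed widely in level. Jag1 measured 181, 157 and 205 CPM in WT lines 36, 47 and 78 and 315, 203 and 190 CPM in KO lines 33, 41 and 72. KO line 33 stood well above the other 5 lines, and KO lines 41 and 72 lay inside the WT range. The means were 181 ± 24.1 and 236 ± 68.5 CPM, with a log2 fold change of 0.39 (SE 0.21, 95% interval -0.13 to 0.90) and an adjusted p-value of 0.464 in edgeR. Without KO line 33 the log2 fold change was 0.12, and without KO line 72 it was 0.53. No annotated gene overlaps Jag1, which lies on chromosome 2 from 137081456 to 137116644 on the minus strand.

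Dll1, the Delta ligand of early mesoderm and somites, was scarce in these cells. Its counts were 53, 51 and 70 for WT lines 36, 47 and 78, and 81, 24 and 75 for KO lines 33, 41 and 72. The WT lines were close together, and the KO lines again lay on both sides of them, with KO line 41 lowest. In scaled values this was 0.681 ± 0.0414 CPM against 0.745 ± 0.340 CPM, with a log2 fold change of 0.13 (SE 0.41, 95% interval -0.86 to 1.13). A long non-coding RNA on the opposite strand overlaps 1093 exon bases of Dll1, on chromosome 17 from 15367354 to 15376872, so these few counts are uncertain.

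The 4 target genes had a median log2 fold change of 0.85, against 0.15 for the receptors and 0.26 for the ligands, and Notch4 among the receptors exceeded Hey1 and Hes1. Hes1 had the smallest value of the target genes. This repressor, which oscillates in many progenitor cells, measured 47.1, 49.5 and 46.4 CPM in WT lines 36, 47 and 78. In KO lines 33, 41 and 72 it measured 56.7, 50.1 and 48.5 CPM. KO lines 33 and 41 exceeded every WT line while KO line 72 did not. The means were 47.6 ± 1.65 and 51.8 ± 4.35 CPM, and the log2 fold change was 0.12 (SE 0.08, 95% interval -0.07 to 0.31, adjusted p-value 0.534 in edgeR). Hes1 lies on chromosome 16 from 30064384 to 30067796 on the plus strand.

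Hey1, a Hes-related repressor induced by Notch in vessels and mesenchyme, split the KO lines into high and low. It measured 7.64, 5.41 and 5.84 CPM in WT lines 36, 47 and 78. In KO lines 33, 41 and 72 it measured 13.5, 4.76 and 13.5 CPM, from 1206, 322 and 1041 counts. KO lines 33 and 72 were nearly equal and above all WT lines, and KO line 41 was below all WT lines. The log2 fold change was 0.75 (SE 0.40, 95% interval -0.22 to 1.73) with an adjusted p-value of 0.454 in edgeR. Without KO line 41 the log2 fold change was 1.11, with an unadjusted p-value of 0.00117 and an adjusted p-value of 0.117 in edgeR. It was 0.54 (unadjusted p-value 0.278 in edgeR) without KO line 33 and 0.56 (unadjusted p-value 0.243) without KO line 72, and 0.44 with voom. Hey1 lies on chromosome 3 from 8663359 to 8667256 on the minus strand.

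Hey2, the Hey gene of arterial and cardiac development, came closest to a genotype difference. Its 293, 210 and 165 counts in WT lines 36, 47 and 78 corresponded to 3.88, 2.61 and 1.67 CPM. The 461, 217 and 563 counts of KO lines 33, 41 and 72 corresponded to 5.18, 3.21 and 7.30 CPM. KO lines 33 and 72 exceeded every WT line, and KO line 41 lay between WT lines 36 and 47. The means were 2.72 ± 1.11 CPM in HAT1 WT and 5.23 ± 2.04 CPM in HAT1 KO, a KO mean at 192% of the WT mean. On the log2 scale the difference was 0.94 (SE 0.41, 95% interval -0.05 to 1.94), with an unadjusted p-value of 0.0589 and an adjusted p-value of 0.363 in edgeR. It was positive in each of the 14 alternative fits, between 0.62 and 1.66, and its adjusted p-value was never below 0.194.

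Hey2 was the only target gene with a promoter entry, so Hes1, Hey1 and Heyl could not be searched for motifs. The other genes with an entry were receptors and ligands. Among the 7 genes with an entry, only the Hey2 window held the core motif of RBPJ, the DNA-binding partner of the Notch intracellular domain. The motif searched was TGGGAA on either strand, found in 25.6% of 32851 mouse promoter windows of 300 bases, and its extension GTGGGAA, which contains the core, was found in 6.38%. The Hey2 window held 2 matches to the extended motif, a number reached by 0.256% of promoters. Counted from the start site, the first covers positions -207 to -201 and reads as the reverse complement, and the second covers positions -4 to 3, across the start site. The 250 bases upstream of Hey2 (chr10:30842784-30843033, minus strand, GRCm38.p6) and the 12 bases on each side of its start site are printed 5′ to 3′ with core matches in capitals. The last 3 upstream bases are the first letters of the second core match.
Hey2 upstream: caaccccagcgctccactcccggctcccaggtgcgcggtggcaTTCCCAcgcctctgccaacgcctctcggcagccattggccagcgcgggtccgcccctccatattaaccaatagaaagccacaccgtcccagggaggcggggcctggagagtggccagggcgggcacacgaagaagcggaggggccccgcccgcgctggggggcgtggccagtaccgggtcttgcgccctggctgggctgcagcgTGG
Hey2 start site: gctgcagcgTGGGAAagaacctcc
The E-box CACGTG, a motif bound by Hey proteins, was in none of the 8 windows of these 7 genes and in 7.15% of all promoters. The N-box CACNAG, bound by Hes1, was in the windows of Notch1, Notch2, Notch3 and 1 Dll1 start site and in 42.5% of all promoters. A match is a run of letters and does not show that a factor binds there.

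Heyl, the third Hey gene, is known from smooth muscle and muscle progenitors. It measured 4.15, 2.60 and 4.99 CPM in WT lines 36, 47 and 78 and 21.1, 2.37 and 3.62 CPM in KO lines 33, 41 and 72. KO line 33, with 1875 counts, stood far above all other lines, while KO line 41 lay just below and KO line 72 inside the WT range. The means were 3.91 ± 1.22 and 9.01 ± 10.4 CPM, with a log2 fold change of 1.20 (SE 0.83, 95% interval -0.81 to 3.22) and an adjusted p-value of 0.556 in edgeR. Without KO line 33 the log2 fold change was -0.39, so the direction for Heyl rests on that line. Heyl lies on chromosome 4 from 123233556 to 123249875 on the plus strand.

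**Figure D2:**
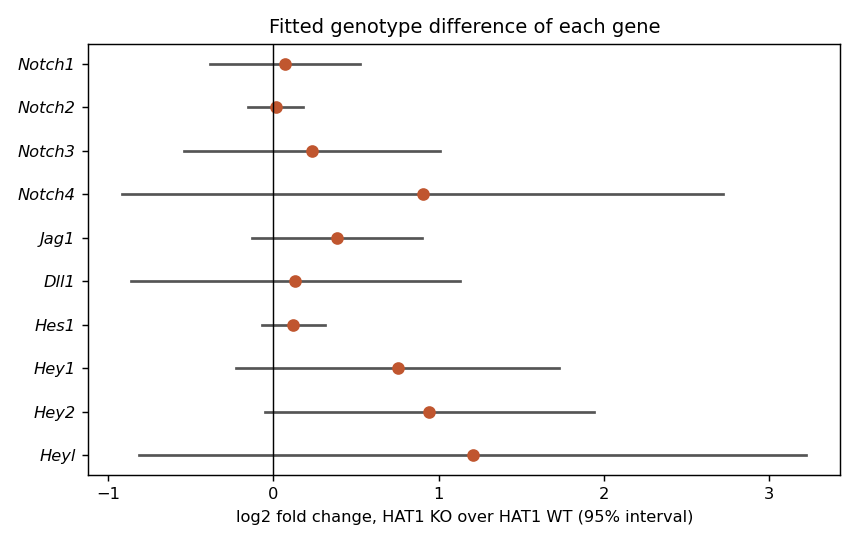
Fitted log2 fold change of each of the 10 genes, HAT1 KO over HAT1 WT, with its 95% interval (points, estimates from 3 lines per genotype; lines, intervals). Every interval includes 0, and those of Notch2 and Hes1 are the narrowest while that of Heyl, from -0.81 to 3.22, is the widest.

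Some neural crest and glial markers were high in KO line 33, as Heyl was. Sox10, which specifies the neural crest, measured 7.52 CPM there and between 0 and 1.92 CPM in the other 5 lines. Foxd3, another neural crest regulator, measured 5.07 CPM there and at most 1.20 CPM elsewhere. The 6 markers with a row, of 8 listed, summed to 6.23 to 7.38 CPM in WT lines and to 22.5, 1.15 and 20.7 CPM in KO lines 33, 41 and 72, where the sum in KO line 72 was mostly the neuronal gene Stmn2 (19.3 CPM). Stmn2 in KO line 33 (2.22 CPM) was below WT lines 36 and 47, and Fabp7 there (0.786 CPM) was below WT line 78, so that not all members of the list were high in that line. All 6 had a higher fitted level in HAT1 KO, beside 51.5% of all tested genes. At an unadjusted p-value under 0.05 it was 0 of 6, beside 14.6% of all tested genes. Sox10, Foxd3, Stmn2 and Fabp7 were singled out after their values were seen, and the part of such cells in the Heyl level was not tested. Of the muscle progenitor markers, Pax7, Myf5, Myod1 and Myog had no row, and the 3 others summed to 3.76 to 29.5 CPM in WT lines and 4.19 to 28.6 CPM in KO lines. The 8 epithelial markers summed to 1.09 to 2.53 CPM over all lines.

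The KO lines took different positions across the set, with KO line 33 often high and KO line 41 often low. KO line 33 was the highest and KO line 41 the lowest of the KO lines for 5 of 10 genes, beside 10.3% of tested genes. KO line 72 was instead the highest for Notch4, Dll1 and Hey2 and the lowest of the KO lines for Jag1 and Hes1. KO line 33 lay above all 3 WT lines for 10 of 10 genes (9 of 10 when scaled by library size alone, where Notch2 dropped out), and 31.0% of all tested genes did so. KO line 41 lay below all WT lines for 6 of 10 genes, namely Notch1, Notch2, Notch3, Dll1, Hey1 and Heyl, beside 30.8% of tested genes. KO line 72 lay above all WT lines for 5 of 10, namely Notch3, Notch4, Dll1, Hey1 and Hey2, beside 34.9%. Relative to the mean of the WT lines on the log2 scale, KO line 33 ranged from 0.06 (Notch2) to 2.48 (Heyl), KO line 41 from -0.94 (Dll1) to 0.32 (Hey2) and KO line 72 from -0.06 (Heyl) to 1.99 (Notch4). The spread between lines, taken as the highest over the lowest value, was wider in HAT1 KO than in HAT1 WT for 9 of 10 genes, Hey2 being the exception, and for 64.9% of tested genes. It reached at least 2-fold among KO lines for 6 of 10 genes and for 20.2% of tested genes. These counts describe the lines, were chosen after the values were seen and carry no test.

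**Figure D3:**
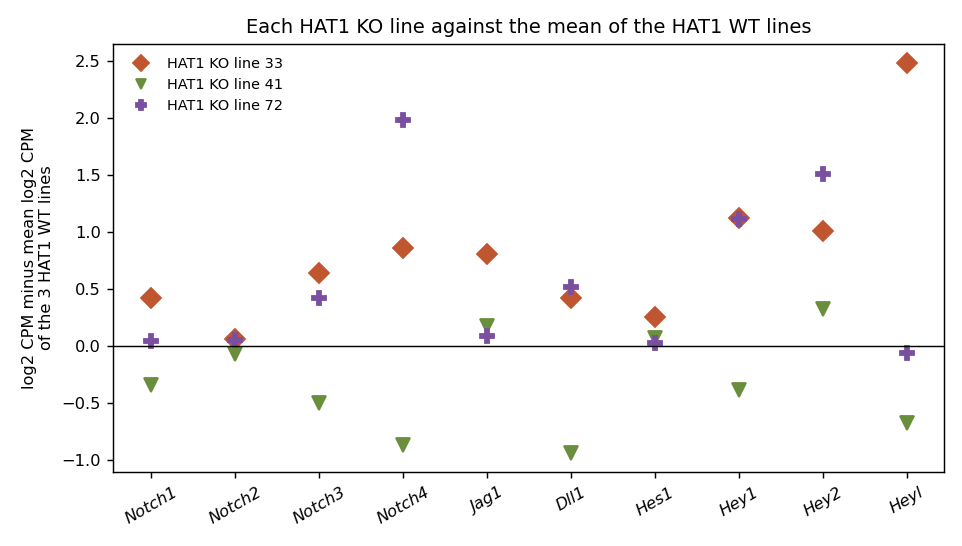
Difference of each HAT1 KO line from the mean of the 3 HAT1 WT lines for the 10 genes, in log2 CPM, with 0 as the WT mean (diamonds, KO line 33; triangles, KO line 41; crosses, KO line 72). KO line 33 is above 0 for all 10 genes, up to 2.48 for Heyl, and KO line 41 is below 0 for 7 of them.

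Lines sequenced in the same lane were also compared. KO lines 33 and 72 shared lane 6 and KO line 41 was in lane 7. The contrast of KO line 41 with the other KO lines thus cannot be told apart from the lane. In lane 6, KO line 33 exceeded WT line 47 for 10 of 10 genes, with log2 differences from 0.01 to 3.02, and KO line 72 exceeded it for 7 of 10, from -0.05 to 1.68. In lane 7, KO line 41 exceeded WT line 78 for 2 of 10 genes, Hes1 and Hey2, with log2 differences from -1.58 to 0.95. Hey2 was the only gene of the 10 that was higher in KO in all 3 of these pairs, by 0.99, 1.48 and 0.95 on the log2 scale. KO lines 33 and 72 were both compared with the same WT line 47. Lane 8 held WT line 36 alone and gave no comparison. WT line 36 had the highest Hey2 of the WT lines (3.88 CPM), above KO line 41 (3.21 CPM). When WT line 78, the only WT line without high Y-linked counts, was set against the 3 KO lines, the log2 fold changes were positive for 10 of 10 genes. That of Hey2 was then 1.66, and WT line 78 had the lowest Hey2 of the WT lines (1.67 CPM). Such a fit takes the lone WT line to vary as the KO lines do.

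The composition of each family followed from these shifts. Notch2 made up between 59.8% (KO line 33) and 72.8% (KO line 41) of the summed receptor level per kb. Notch3 made up between 13.0% and 22.6%, Notch1 between 13.3% and 16.9% and Notch4 between 0.205% and 1.55%. The Notch3 share was 20.9%, 13.0% and 18.2% in WT lines 36, 47 and 78 and 22.6%, 13.7% and 20.8% in KO lines 33, 41 and 72, so the genotypes overlapped. Hes1 made up 85.2%, 89.9% and 87.9% of the summed target level per kb in WT lines 36, 47 and 78. In KO lines 33, 41 and 72 it made up 74.8%, 90.4% and 78.8%, so 2 KO lines lay below and 1 above all WT lines. The remainder in KO line 33 was mainly Hey1 and Heyl, at 11.1% each, and in KO line 72 mainly Hey1 at 13.7%.

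**Figure D4:**
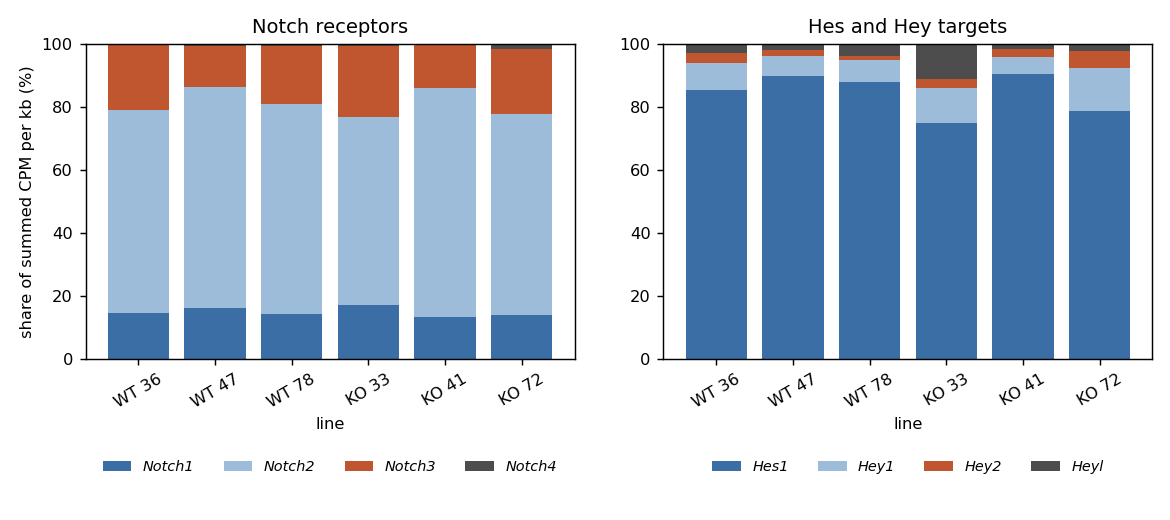
Share of each gene in the summed level per kb (%) of the 4 receptors (left) and of the 4 target genes (right), 1 bar per line, bars stacked to 100%. Notch2 takes the largest receptor share in every line, and the Hes1 share is lowest, at 74.8%, in KO line 33.

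Other genes of the pathway were listed by function and counted in the same fit. Of 58 listed genes 56 had a row and 50 were tested. In edgeR 0 of the 50 had an adjusted p-value under 0.05, where DESeq2 gave 5 and voom 2. Of all 14773 tested genes edgeR called 78, DESeq2 869 and voom 267 at that threshold. At an unadjusted p-value under 0.05, 2 were higher (4% of the 50, beside 5.88% of all tested genes) and 7 were lower in HAT1 KO (14%, beside 8.77%). For 14 of the 50, or 28%, the lines of the genotypes were fully separated, beside 22.0% of all tested genes. The fitted level was lower for 34 of the 50 (68%, beside 48.5% of all tested genes), with a median log2 fold change of -0.05.

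The core transcription complex showed small differences. RBPJ's own gene, Rbpj, measured 160, 166 and 170 CPM in WT lines 36, 47 and 78 and 151, 169 and 144 CPM in KO lines 33, 41 and 72, which overlapped. Of the 15 genes for the nuclear complex and co-repressors, 13 had a lower fitted level in HAT1 KO (86.7%, beside 48.5% of all tested genes). For 2 of these 13 the unadjusted p-value was under 0.05 (13.3% of the 15, beside 8.77% of all tested genes). Tle1, a Groucho co-repressor that Hes and Hey proteins recruit, measured 34.3, 30.1 and 27.6 CPM in the WT lines and 17.4, 17.5 and 19.9 CPM in the KO lines. All 3 KO lines were below all WT lines, at a log2 fold change of -0.75 (SE 0.11), and the adjusted p-value of 0.0584 in edgeR was just over the threshold. It was one of the genes that passed it in DESeq2 and in voom. Maml3, a Mastermind co-activator, had a log2 fold change of -0.42 (SE 0.15) and an adjusted p-value of 0.278.

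Genes that process the receptor were divided. Of 15 tested, 3 had an unadjusted p-value under 0.05, all lower in HAT1 KO (20%, beside 8.77% of all tested genes). None passed the adjusted threshold in edgeR. Adam17, a sheddase able to cut Notch, measured 112, 116 and 145 CPM in the WT lines and 97.6, 89.6 and 81.9 CPM in the KO lines, so that the genotypes did not overlap. Its log2 fold change was -0.47 (SE 0.12, adjusted p-value 0.187). Mfng, a fringe glycosyltransferase that modifies receptor-ligand preference, had one of -0.85 (SE 0.23) and the gamma-secretase subunit Aph1c one of -0.71 (SE 0.20). The main Notch protease Adam10 had a log2 fold change of -0.06 (SE 0.06), with overlapping lines, and was named after its values were seen. Aph1c has the close paralog Aph1b, and reads shared between them could have been split in either way.

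**Figure D5:**
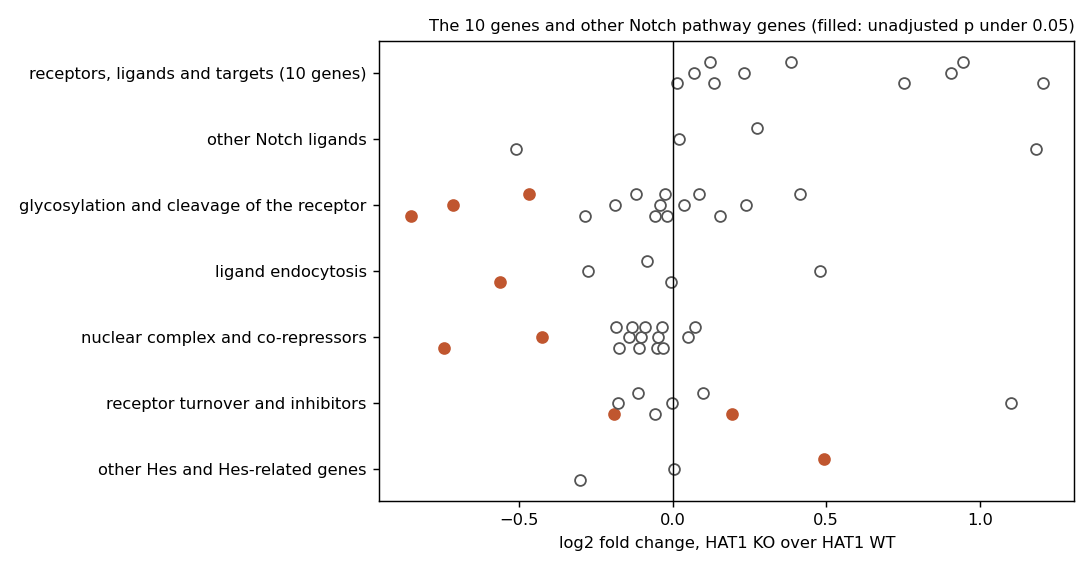
Log2 fold change, HAT1 KO over HAT1 WT, of the 10 genes (top row) and of 50 other Notch pathway genes by list, 1 circle per gene, with filled circles for an unadjusted p-value under 0.05 (small vertical offsets only separate points). All 10 circles in the top row are open and right of 0, and 7 of the 9 filled circles lie left of 0.

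Of the 5 genes for ligand endocytosis 1 passed an unadjusted p-value of 0.05, lower in HAT1 KO (20%, beside 8.77% of all tested genes). Neurl3, a relative of the neuralized ubiquitin ligases, measured 31.0, 30.6 and 32.9 CPM in the WT lines and 19.3, 21.6 and 23.0 CPM in the KO lines, with a log2 fold change of -0.56 (SE 0.09) and an adjusted p-value of 0.0669 in edgeR. All KO lines were below all WT lines. The part of the lower myeloid marker level in the differences of Neurl3, Tle1 and Adam17 was not tested. Among genes for receptor turnover and inhibition, 8 of 9 were tested and 2 had an unadjusted p-value under 0.05. Of these 1 was higher (12.5%, beside 5.88% of all tested genes) and 1 lower in HAT1 KO (12.5%, beside 8.77%). Numb, an inhibitor of Notch signalling, had a log2 fold change of -0.19 (SE 0.06) and its relative Numbl one of 0.19 (SE 0.06), in opposite directions and without overlap between the genotypes for either gene.

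The remaining ligands and Hes-related genes were scarce or did not pass the adjusted threshold. Dner, a non-canonical ligand, measured 2.39, 1.81 and 2.53 CPM in WT lines 36, 47 and 78 and 6.86, 1.07 and 7.35 CPM in KO lines 33, 41 and 72. Its log2 fold change was 1.18 (SE 0.66, adjusted p-value 0.464 in edgeR), and its KO lines fell in the order seen for Hey1, 33 and 72 above and 41 below all WT lines. Dlk1 and Dlk2 did not share it. Dlk1, the most abundant of the list and chosen after its values were seen, measured 224, 363 and 34.3 CPM in KO lines 33, 41 and 72, with KO line 41 highest. Dlk2, chosen likewise, measured 0.999, 2.22 and 4.06 CPM in these lines, with KO line 33 lowest. Dll3 and Dll4 had at most 6 counts in any library, and Hes5, the neural Hes gene, was counted 4, 1 and 2 times in WT and 0 times in each KO line, too few to be tested. Bhlhe40, a related repressor, was the 1 of 3 tested genes of its list with an unadjusted p-value under 0.05 (33.3%, beside 5.88% of all tested genes). It was higher in HAT1 KO (log2 fold change 0.49, SE 0.18, adjusted p-value 0.303 in edgeR).

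Proliferation genes were counted beside the Notch genes. All 12 had a higher fitted level in HAT1 KO, beside 51.5% of all tested genes. In edgeR 7 of the 12 had an unadjusted p-value under 0.05 (58.3%, beside 5.88% of all tested genes) and 0 an adjusted one. Their sum was 477, 716 and 504 CPM in WT lines 36, 47 and 78 and 989, 822 and 674 CPM in KO lines 33, 41 and 72. KO line 33, highest for 7 of the 10 Notch genes, was also highest here, while KO line 41, lowest for 6 of them, exceeded every WT line. The part of proliferation in the Notch gene levels was not tested.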

How the data were processed

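Total RNA from 6 pMEF lines had been made into libraries with a TruSeq RNA kit and sequenced in 3 lanes. The deposited table, made by the authors with edgeR on genome build mm10, holds raw counts per gene, and the aligner, the counter and its use of strand are not given in the sources used here. It also holds the authors' own comparison (log2 fold change, log2 mean CPM, F score, p-value and q-value), which was not used. Genes were filtered with edgeR's filterByExpr, scaled by TMM and tested with edgeR's quasi-likelihood F-test (edgeR 4.0.16, R 4.3.3), HAT1 KO against HAT1 WT, 3 lines each and no covariates, with Benjamini-Hochberg adjustment over all 14773 genes tested. Counts of 67720628 to 98786746 per library set the precision. DESeq2 1.42.0, limma 3.58.1 (voom with quality weights), other scalings and filters, lane as a covariate and omission of each line were alternatives. The procedure was tested on simulated data.

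The 10 genes, the pathway lists and the cell type markers (endothelial, mural, myeloid blood, muscle progenitor, neural and glial, epithelial, fibroblast, proliferation) were chosen with earlier results of these data known. Named were all 10 genes, Hat1, of each pathway list up to 3 genes with the smallest p-value under 0.05 or else the 1 smallest, genes at 0 in a genotype, and up to 2 endothelial and mural markers each. Other named genes were chosen after their values were seen. Gene positions and exon lengths came from GENCODE M21 (GRCm38), and promoters from RefSeq (GRCm38.p6).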

Additional observations from a re-analysis of the deposited data

How the results depend on the processing

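None of the 10 genes passed the adjusted threshold in any of the 14 alternative fits, but few genes of the series passed in several of them. Over all genes 78 passed in the fit reported, 0 without WT line 36, WT line 47 or KO line 33 and with WT line 78 alone, 2 with the lane in the model, 4 without WT line 78 and 6 without KO line 41, so those fits say nothing about stability at that threshold. The number at an unadjusted p-value under 0.05 was 0, and became 1 with DESeq2's Wald test, no filter, the lane in the model and WT line 78 alone as control (Hey2 in each), 1 with voom (Jag1), and 0 to 2 when single lines were left out (Hey2 without WT line 36, Hey1 and Hey2 without KO line 41, Jag1 without KO line 72). The direction turned for Notch1 with voom (-0.033), with the lane in the model (-0.022) and without KO line 33 (-0.139), and for Notch2 in the same fits (-0.016, -0.014 and -0.0067). It turned for Dll1 in these fits (-0.164, -0.109 and -0.033) and without KO line 72 (-0.084), for Notch4 with the lane in the model (-0.032) and for Heyl without KO line 33 (-0.39). With single lines left out, the values ranged from -0.139 to 0.247 for Notch1, from -0.0067 to 0.060 for Notch2, from -0.084 to 0.468 for Dll1 from 0.09 to 1.35 for Notch4, from 0.54 to 1.11 for Hey1 and from -0.386 to 1.67 for Heyl. The log2 fold changes of Notch3, Jag1, Hes1, Hey1 and Hey2 stayed positive in all 14, with a lowest value of 0.00044 for Notch3. Of the pathway genes 0 passed the adjusted threshold, against 5 with DESeq2 and 2 with voom, where 869 and 267 of all genes passed. At an unadjusted p-value under 0.05 it was 9 pathway genes, against 4 with the lane in the model and 5 to 12 when single lines were left out. The share of all tested genes was 14.6% in the fit reported, 6.3% with the lane in the model and 9.58% to 18.5% when single lines were left out. Hat1 missed the adjusted threshold in 8 alternatives, with log2 fold changes from -1.10 to -0.87 over all of them. The cause of these changes was not tested. The counts of KO lines outside the WT range were repeated under other scalings and changed only for KO line 33 (9 of 10 by library size). These scalings, and the repeats for the myeloid markers, were chosen after seeing the data. No paired analysis was possible because the genotypes share no replicate numbers, and the lane, shared by lines of both genotypes, entered as a covariate instead. Notch4 and Dll1, at 24 to 404 counts per library, were the least precisely counted.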
